A study of Xenopus laevis with 6 samples.

Results

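Broad Etv6 peaks are the regions of the Etv6 consensus peak list that were longer than 1 kb and lay on an assembled chromosome of *Xenopus laevis*. They were selected on their length alone, and 633 of the 6118 chromosome peaks met the limit, which is 10.3% (95% interval 9.59 to 11.1%), out of 9128 consensus peaks in the whole series. The list came from 6 samples of manually dissected somites of wild-type, J-strain embryos at stage 22. In 3 samples chromatin was immunoprecipitated with a custom-made antibody against *Xenopus* Etv6, and 3 input samples without antibody served as controls. All of them were cross-linked with EGS at 2 mM before fixation, for which the labels give 10 min. The paper's methods give a longer fixation time. Dissection did not isolate the somites completely, since axial tissues (notochord and hypochord), the neural tube and a little endoderm came with them, so a peak cannot be assigned to somite cells alone. A single peak list was made from the 3 ChIP samples, each peak being found in all 3, and it holds no value per sample. No replicate error can therefore be given, the depth of the samples is unknown from the list, and the identity of the tissue cannot be checked on marker genes. The intervals printed below are exact 95% intervals that cover counting error only, and neighbouring peaks are not independent of each other. No test was run over peaks, since they all share the same samples.

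Etv6 (Tel) is a transcription factor of the ETS family, whose members bind DNA through the ETS domain, and it is best known as a repressor. Besides its ETS domain it carries a pointed (SAM) domain through which Etv6 molecules can associate with each other, and chains of such molecules along DNA have been discussed as a way to occupy long stretches of chromatin. For this reason the length and the grouping of Etv6 peaks are of interest. The paper states that such chains remain unproven in vivo. It found no peak over 2 kb at a gene with changed expression, and concluded that chaining does not bring about repression in somites. In ChIP-seq, the length of a peak is the stretch over which fragments are enriched over input, and in a consensus list it is the stretch covered by the overlapping peaks of the replicates, so it depends on the fragments and on the merging as well as on the factor. The *X. laevis* genome is allotetraploid and consists of an L and an S subgenome, so that the chromosomes, and many genes, exist as an L and an S copy (homeologs).

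The lengths of the 633 broad peaks ran from 1001 to 4759 bp, with quartiles at 1088, 1221 and 1482 bp. In comparison, the median of the 5485 shorter chromosome peaks was 524 bp. Most broad peaks were close to the limit: 481 were up to 1.5 kb long, 78 were between 1.5 and 2 kb, and 74 were over 2 kb. The limit does not fall at a gap in the lengths, since 97 peaks were 1001 to 1050 bp long and 119 were 951 to 1000 bp long. Just inside it were chr1L:153631879-153632878 and chr2S:32293005-32294004, both of 1001 bp, and chr1L:86292247-86293247 of 1002 bp. Just outside were chr6S:41484065-41485063 of 1000 bp, chr6S:108625327-108626324 of 999 bp and chr7S:34093861-34094858 of 999 bp. Coordinates are those of the X. laevis v9.1 genome.

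The 10 longest broad peaks measured between 3629 and 4759 bp. The longest, chr1S:84070105-84074862 (4759 bp), stood 267 kb away from any other peak. The next, chr5L:34993709-34998436 (4729 bp), had a neighbour 99 bp away and belonged to a group of 6 peaks that held 3 broad ones. The 5 longest were completed by chr2S:58809517-58813985 (4470 bp, nearest peak at 7.34 kb), chr3L:143121574-143126037 (4465 bp, 118 bp) and chr9_10L:84927994-84932365 (4373 bp, 29 bp). Thus 1 of these 5 was isolated and the others had close neighbours. Chromosome 8L contributed 3 of the 10, namely chr8L:99819124-99823338 (4216 bp, nearest peak at 61.1 kb), chr8L:13224248-13228442 (4196 bp, 628 bp) and chr8L:16825430-16829563 (4135 bp, 76 bp). The remaining ones were chr7S:44667708-44671613 (3907 bp, 190 bp) and chr6S:9305672-9309299 (3629 bp, 688 kb).

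To see how broad peaks are placed relative to other Etv6 peaks, the distance from the edge of each peak to the edge of its nearest neighbour on the same chromosome was measured. Broad peaks lay closer to other peaks than shorter ones. The median distance was 15.3 kb for broad peaks (interval 7.27 to 21.6 kb, quartiles 0.614 and 124 kb, n = 633) and 78.1 kb for shorter peaks (73.6 to 83.0 kb, quartiles 13.5 and 230 kb, n = 5485). Another peak was found within 10 kb for 304 broad peaks, which is 48.0% (44.1 to 52.0%), compared with 22.8% of shorter peaks (21.7 to 24.0%) and 25.4% of all chromosome peaks. Another peak within 1 kb was present for 30.6% of broad peaks (194 peaks, 27.1 to 34.4%), compared with 658 of the 5485 shorter peaks (11.1 to 12.9%) and 13.9% of all. At the other end, 184 broad peaks (29.1%, 25.6 to 32.8%) had no other peak within 100 kb, against 44.5% of shorter peaks. The intervals of broad and shorter peaks did not overlap in any of these measures. However, distance is partly tied to peak length by the way peaks are merged into a consensus. When peaks less than 1 kb apart were first merged into one, 794 merged peaks were over 1 kb, 30.2% of them had a neighbour within 10 kb against 12.3% of the shorter ones, and the median distances were 57.1 and 102 kb. Such merging makes new peaks over 1 kb where peaks are dense, so it does not remove the tie.

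**Figure D1:**
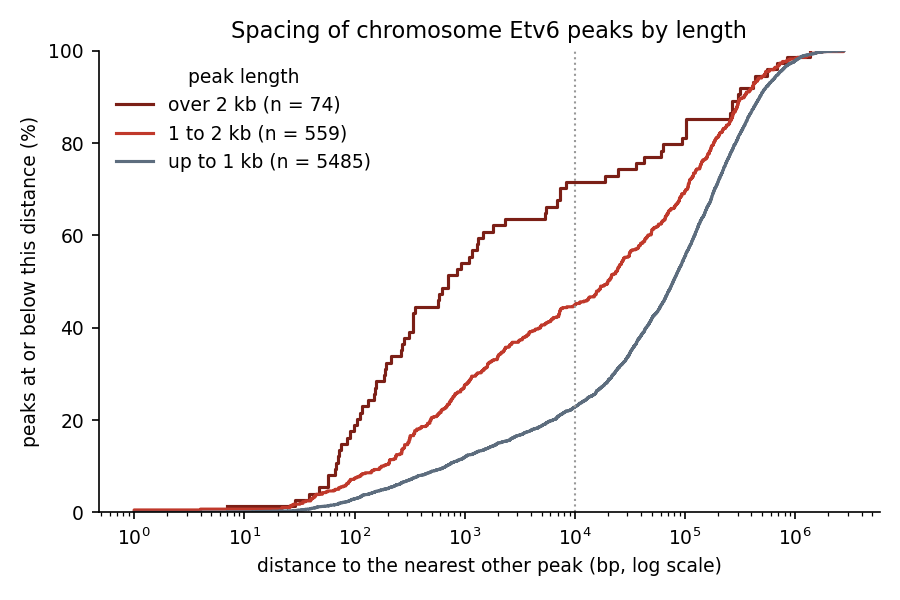
Cumulative share of chromosome peaks (percent, vertical axis) with their nearest other peak at or below a given distance (bp, log scale, horizontal axis), for peaks over 2 kb, of 1 to 2 kb and up to 1 kb; the dotted line marks 10 kb. The curves are ordered by length at 10 kb, where 71.6% of peaks over 2 kb and 22.8% of peaks up to 1 kb had a neighbour.

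The spacing also differed within the broad peaks. A neighbour within 10 kb was present for 42.4% of the peaks of 1 to 1.5 kb (37.9 to 47.0%, n = 481), 60.3% of those of 1.5 to 2 kb (48.5 to 71.2%, n = 78) and 71.6% of those over 2 kb (59.9 to 81.5%, n = 74). The median distance was 24.4 kb (15.7 to 32.2 kb), 2.44 kb (0.957 to 13.3 kb) and 0.704 kb (0.312 to 1.81 kb) in the same order. Peaks of 750 bp to 1 kb, which are just too short to be counted as broad, had a neighbour within 10 kb in 26.6% of cases (23.7 to 29.6%) and a median distance of 61.7 kb, closer to the values of all shorter peaks than to those of the broad ones. The intervals of the 1.5 to 2 kb class and the class over 2 kb overlapped. The tie between distance and length applies to these classes too.

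The spacing was then compared chromosome by chromosome. Across the 18 chromosomes, the share of broad peaks with a neighbour within 10 kb ranged from 22.7% on 4S to 73.5% on 9_10L (25 of 34 peaks), and that of shorter peaks from 16.5 to 30.7%. The share was higher for broad than for shorter peaks on 18 of 18 chromosomes. Median distances were shorter for broad peaks on 15 of 18, with 4S, 7L and 8S as exceptions. With 22 to 53 broad peaks per chromosome the single values are imprecise, as on 4S, where 5 of 22 broad peaks gave an interval of 7.82 to 45.4%.

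The neighbours of broad peaks were more often broad themselves. For 104 broad peaks (16.4%, 13.6 to 19.6%) the nearest other peak was also broad, compared with 10.2% of shorter peaks (9.46 to 11.1%) and 10.9% of all chromosome peaks. This difference was found among peaks with a neighbour within 10 kb, where the nearest peak was broad for 26.0% of broad (21.1 to 31.3%) and 17.1% of shorter peaks (15.0 to 19.3%). Among peaks without one the shares were 7.60% (4.98 to 11.0%) and 8.22% (7.41 to 9.09%), and the intervals overlapped. In 93 places a broad peak was directly followed by another broad peak, and 54 of these pairs were within 10 kb, 35 less than 1 kb and 6 less than 100 bp apart. Broad peaks were 10.3% of all chromosome peaks, and how many such pairs this share alone would give was not computed. In the closest pair the distance between deposited positions was 1 bp, from chr3L:24673759-24674823 (1066 bp) to a peak of 1763 bp. In printed positions both together spanned 2829 bp. Gaps of 22 bp on 7S (1304 and 1473 bp, together 2798 bp), 26 bp on 6S (1028 and 1409 bp, together 2462 bp) and 51 bp, also on 6S (1125 and 1973 bp, together 3148 bp), came next. The fifth pair lay on 9_10L, where peaks of 2469 and 2432 bp, 57 bp apart, spanned 4957 bp together, more than the longest single chromosome peak.

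Peaks were then joined into runs, a run being a set of peaks in which each is at most 10 kb from the one before (a description chosen after the data had been seen). The 633 broad peaks were spread over 543 runs, of which 329 consisted of the broad peak alone and 214 held further peaks. The share of broad peaks was 7.21% (6.48 to 8.00%) among the 4562 peaks that stood alone and 14.3% (126 of 882, interval reaching up to 16.8%) in runs of 2 peaks. It was 20% (57 of 285, 15.5 to 25.1%) in runs of 3, 28.7% (47 of 164, 21.9 to 36.2%) in runs of 4 and 24.6% (16 of 65, 14.8 to 36.9%) in runs of 5. In the 20 runs of 6 or more peaks it was 36.3% (58 of 160, 28.8 to 44.2%), and 1 of these 20 had no broad peak. The share was thus higher in the larger runs than in single peaks, and the interval of runs of 6 or more peaks lay above those of single peaks, of runs of 2 and of runs of 3, but overlapped those of runs of 4 and 5.

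**Figure D2:**
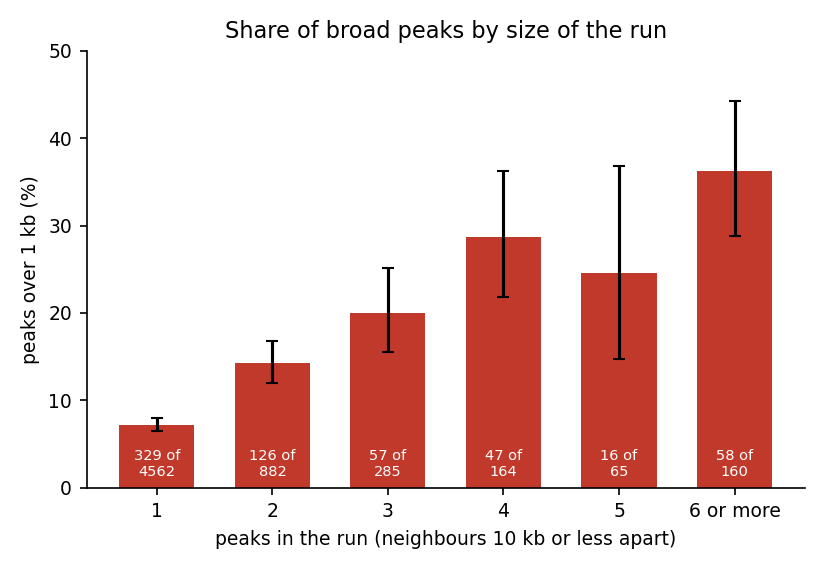
Share of peaks over 1 kb (percent, vertical axis) by the number of peaks in the run (horizontal axis); bars are shares with the broad and total number of peaks written in them, and lines are exact 95% intervals. The share was 7.21% for peaks alone in their run and 36.3% in runs of 6 or more peaks.

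Of all runs, 59 held 2 or more broad peaks (149 peaks in total), 30 of them on L and 29 on S chromosomes, and 15 held 3 or more (61 peaks). The run with the most broad peaks was chr2S:32291484-32321080, a stretch of 29.6 kb with 16 peaks, 10 of them broad. Its first 6 peaks were all broad, with lengths of 1236, 1001, 2886, 1671, 1242 and 1330 bp, and the gaps between them ran from 271 to 2795 bp. Peaks covered 64.8% of the stretch. The nearest genes of the study's direct target list were 0.669 Mb and 1.16 Mb away, on either side (Xelaev18014540m.g and phka2-like.S, a relative of the regulatory subunit of phosphorylase kinase).

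On 9_10L there were 2 runs with 5 broad peaks each. The first, chr9_10L:23983101-24006655, held 11 peaks in 23.6 kb, none longer than 1405 bp, with 44.8% covered. The other, chr9_10L:70955165-70970559, was more compact, with 7 peaks in 15.4 kb and 73.8% covered. Its 5 broad peaks followed each other without a shorter one in between, with lengths of 2113, 2469, 2432, 2058 and 1087 bp. The nearest listed gene, dip2a.L, was 0.774 Mb away from this second run. A further run with 5 broad peaks, chr7S:44634405-44671613, was the longest of these stretches with 37.2 kb and 10 peaks (36.6% covered), and ended in the peak of 3907 bp that is among the 10 longest.

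The run chr6S:45809656-45843861 had 4 broad peaks among 11 in 34.2 kb (26.2% covered). Its broad peaks measured 1125, 1973, 1135 and 1083 bp. Another run with 4 broad peaks of 7, chr5S:34537785-34555819, lay 0.717 Mb from tcp1.S, a subunit of the cytosolic chaperonin, and 1.34 Mb from hnrnpll.S, an RNA-binding splicing regulator. None of the 15 runs with 3 or more broad peaks held a peak of the direct target list, but such peaks were rare in runs of this size in general, with 7 of the 169 runs of 3 or more peaks (4.14%) holding one.

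**Figure D3:**
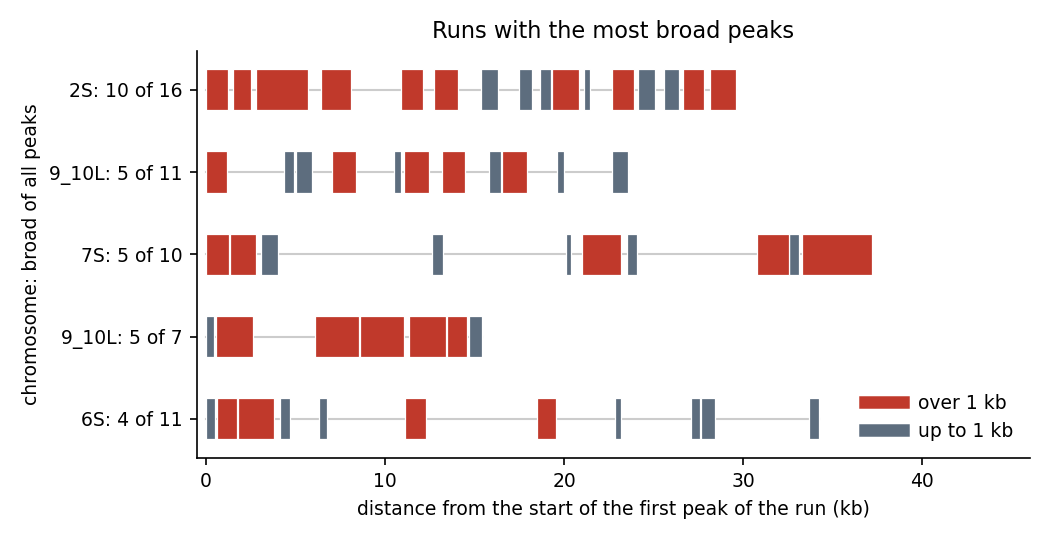
The 5 runs with the most broad peaks, drawn to scale from the start of the first peak (kb, horizontal axis), one run per line with its chromosome and the number of broad peaks of all peaks; blocks are peaks over 1 kb (red) and up to 1 kb (grey). Broad peaks sit next to each other in most of the runs, with 10 of 16 peaks broad in the 2S run and 5 broad peaks in a row in the lower 9_10L run.

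On a larger scale, broad peaks were counted in windows of 1 Mb. Of 2019 windows that held any peak, 466 held a broad one, and 366 of these held exactly 1. In 11 windows there were 4 or more broad peaks. These counts were not compared with shorter peaks or with an even spread, so they do not tell scatter from concentration. The window of chromosome 2S from 32 to 33 Mb held 10 broad peaks among 18, all 10 of them in the run described above. The window of 8L from 11 to 12 Mb also held 10 broad among 17 peaks, placed between 11851590 and 11977983, with a longest peak of 2722 bp. The third was on 3L from 4 to 5 Mb, with 8 broad peaks among 32 and a longest peak of 3592 bp. These 3 windows accounted for 28 broad peaks (4.42% of all), and the next window had 7.

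The most isolated broad peaks were short ones. The peak chr3S:82986921-82987921 (1002 bp) had no other peak within 2.75 Mb, chr1L:213483618-213484825 (1209 bp) none within 1.74 Mb and chr7L:126121784-126122857 (1075 bp), the last peak of its chromosome, none within 1.55 Mb.

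Next, the distribution over the L and S subgenomes was compared. Broad peaks did not differ from shorter ones in this respect beyond the counting error: 343 broad peaks lay on L and 290 on S chromosomes, so that 54.2% were on L (50.2 to 58.1%), compared with 54.0% of shorter peaks (52.7 to 55.3%) and 54% of all chromosome peaks. Among the 9 chromosome pairs, broad peaks were more numerous on the L copy in 5, on the S copy in 3 and equal in 1. The pairs with more on S were pair 1 (30 on 1L and 36 on 1S), pair 2 (41 on 2L and 53 on 2S) and pair 9_10 (34 on L and 35 on S), and pair 7 had 24 on each. Relative to all peaks of the chromosome, the broad share was higher on L in 4 pairs and on S in 5. The share ranged from 6.88% on 1L (30 of 436 peaks, 4.69 to 9.68%) to 15.1% on 8L (48 of 318, 11.3 to 19.5%). After 8L, the highest shares were 14.2% on 6L (49 of 346) and 12.9% on 2S (53 of 411). Within each pair the intervals of the L and the S copy overlapped. Median distances did not separate the subgenomes either, with 15.0 kb for broad peaks on L and 15.9 kb for those on S. Another peak within 1 kb was present for 27.1% of broad peaks on L (22.5 to 32.1%) and 34.8% on S (29.4 to 40.6%). These intervals overlapped. For shorter peaks the shares were 11.8% on L and 12.2% on S.

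**Figure D4:**
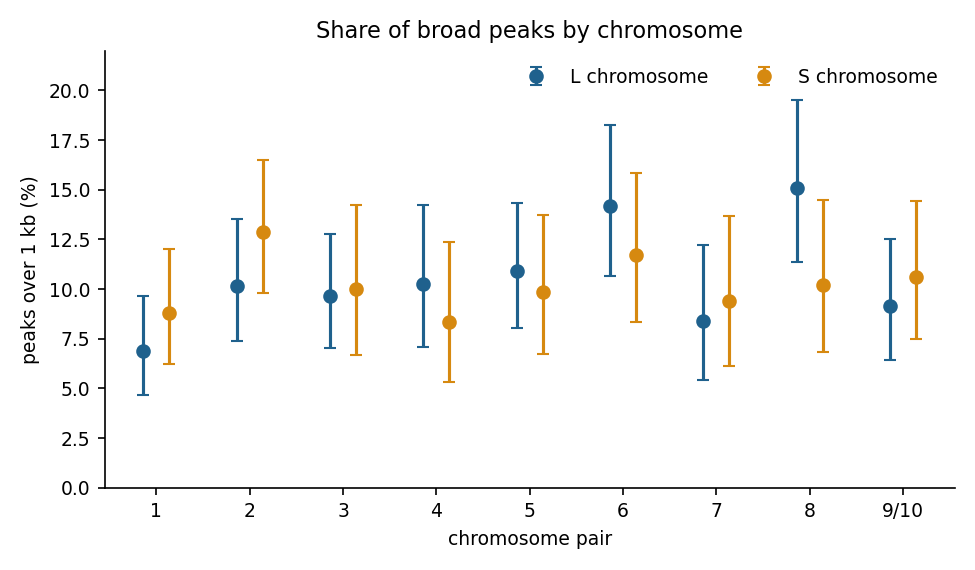
Share of chromosome peaks over 1 kb (percent, vertical axis) for the 9 chromosome pairs (horizontal axis), L and S copies side by side; points are shares and lines exact 95% intervals. Shares ran from 6.88% on 1L to 15.1% on 8L, and the intervals of L and S overlapped in every pair.

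Along the chromosomes, broad peaks were less often near the ends, over L and S combined. The position of a peak was taken as its centre between base 1 and the end of the last peak of the chromosome. In the outer 10% at either end of this span lay 139 broad peaks, which is 22.0% (18.8 to 25.4%), compared with 27.0% of shorter peaks (25.8 to 28.2%) and 26.5% of all. By length, the share was 23.9% (20.2 to 28.0%) for peaks of 1 to 1.5 kb. It was 14.1% (7.26 to 23.8%) for those of 1.5 to 2 kb and 17.6% (9.70 to 28.2%) for those over 2 kb. The interval of the middle class lay below the value of shorter peaks, and those of the other classes held it. For all broad peaks together, the share was lower than for shorter peaks on 15 of 18 chromosomes, the exceptions being 3L, 3S and 8L. On S chromosomes 16.2% of broad peaks (12.2 to 21.0%) and 24.7% of shorter peaks (23.1 to 26.5%) lay there. On L chromosomes the shares were 26.8% (22.2 to 31.8%) and 29.0% (27.3 to 30.6%), and the intervals overlapped. The counting error takes peaks as independent, which grouped peaks are not. With that limit, the difference was larger than the counting error on S but not on L. It also depended on the limits chosen: with a length limit of 750 bp the outer shares were 26.0% and 26.7%, and in the outer 5% at either end they were 14.8% (12.2 to 17.9%) and 17.4%. Between the ends the distribution was uneven. When the span was divided into 10 equal bins, the third bin held 90 broad peaks (14.2%, 11.6 to 17.2%) and 9.90% of the shorter ones (9.12 to 10.7%), whereas the sixth bin, with 37 broad peaks (5.85%, 4.15 to 7.97%), was the least occupied. The sixth bin was also the least occupied by shorter peaks (7.62%, 6.93 to 8.35%). The third bin was singled out after all 10 had been seen, with no allowance for the number of bins compared. Except in that bin, the intervals of broad and shorter peaks overlapped. On L chromosomes they overlapped in the third bin as well, at 11.1% (7.96 to 14.9%) and 9.08% (8.07 to 10.2%). On S chromosomes this bin held 17.9% of broad (13.7 to 22.8%) and 10.9% of shorter peaks (9.67 to 12.1%). The 10 broad peaks of the 2S run described above all lay in it. Whether the difference in this bin remains without that run was not tested.

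Position and spacing went together among the broad peaks. Those with a neighbour within 10 kb lay in the outer 10% in 16.8% of cases (51 of 304, 12.8 to 21.5%), and those without in 26.7% (88 of 329, 22.0 to 31.9%). Among shorter peaks the corresponding shares were 25.8% and 27.4%. Seen from the other side, 51.2% of broad peaks in the inner part of the chromosomes had a neighbour within 10 kb, compared with 36.7% (28.7 to 45.3%) in the outer 10% at either end. For shorter peaks the shares were 23.2% and 21.8%, so broad peaks had more neighbours than shorter ones in both parts of the chromosome.

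Finally, the broad peaks were compared with the study's list of putative direct targets. This list pairs Etv6 peaks at transcription start sites with genes whose transcript levels differed between normal and Etv6-deficient somites, and it was used here for gene names and positions only. A peak outside it may still be near a gene. The list holds 545 peaks, 515 of them on chromosomes. Of the 633 broad peaks 27 were in the list, which is 4.27% (2.83 to 6.15%), compared with 488 of the shorter peaks (8.90%, 8.16 to 9.68%) and 8.42% of all chromosome peaks. By length, the list held 23 of 481 peaks of 1 to 1.5 kb (4.78%), 4 of 78 peaks of 1.5 to 2 kb (5.13%) and 0 of 74 peaks over 2 kb, where the upper limit of the interval was 4.86%. The intervals of these 3 classes overlapped. The paper already reported that its peaks over 2 kb were not at genes with changed expression, so the 0 repeats that result.

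The listed broad peaks were mostly not the grouped ones. Only 2 of the 304 broad peaks with a neighbour within 10 kb were listed (0.658%, 0.0798 to 2.36%), in contrast to 25 of the 329 without one (7.60%, 4.98 to 11.0%). Shorter peaks showed the same order, with 51 of 1252 (4.07%, 3.05 to 5.32%) and 437 of 4233 (10.3%, 9.42 to 11.3%). The intervals of broad and shorter peaks did not overlap among peaks with a neighbour within 10 kb, whereas among those without one they overlapped and the difference in listed shares was not detectable. Of the 27 peaks, 16 had no other peak within 100 kb (59.3%, 38.8 to 77.6%), as had 239 of the 488 listed shorter peaks (44.5 to 53.5%). The 27 were found on 12 of the 18 chromosomes, 18 on L (66.7%) and 9 on S. Of the listed shorter peaks, 55.9% were on L (51.4 to 60.4%). In both measures the intervals of listed broad and listed shorter peaks overlapped, so neither difference was larger than the counting error. The lengths of the 27 were between 1013 and 1699 bp, with a median of 1164 bp, and 4 exceeded 1.5 kb. A gene symbol was given for 16 of them, while 11 carried only a gene model or locus name. Those 11 include the longest listed peak, of 1699 bp (Xelaev18024625m.g, chr4S:21424972-21426669), and the 2 with a neighbour within 10 kb, at Xelaev18019673m.g (7.51 kb away) and LOC733563-like.S (1.49 kb away, in a run of 5 peaks).

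Among the 16 with a symbol, several genes encode signalling, anchoring and channel proteins. The longest was the peak of dock5.L, an activator of the small GTPase Rac, with 1571 bp (chr3L:120356141-120357710, nearest peak at 106 kb). The peaks at both copies of cacna2d2, an auxiliary subunit of voltage-gated calcium channels, were broad, with 1366 bp at cacna2d2.L (chr4L:121507051-121508415) and 1013 bp at cacna2d2.S (chr4S:100391359-100392370). Neither had a neighbour within 100 kb. At akap1-like.S, related to the anchor of protein kinase A on mitochondria, the peak measured 1300 bp (chr2S:87084123-87085421). The peak of map4k4-like.L, related to a Ste20-type kinase, measured 1051 bp (chr2L:109159930-109160979) and with 461 kb was the farthest of the 27 from any other peak.

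Genes of chromatin and transcription were represented by smarcd2, dnmt1 and vezf1. The peak of smarcd2.S, a subunit of SWI/SNF remodelling complexes, was 1476 bp long (chr9_10S:6694413-6695887). At dnmt1.S, the maintenance DNA methyltransferase, it was 1093 bp (chr3S:119530861-119531952), 296 kb from any other peak. In the RefSeq annotation of the v10.1 genome the neighbours of dnmt1.S are eif3g.S, a translation initiation factor subunit, and s1pr2.S, a sphingosine phosphate receptor. At vezf1.L, a zinc finger factor known from vascular endothelium in the mouse, the peak was 1132 bp long (chr2L:60534927-60536057), and the gene lies next to the splicing factor gene srsf1.L.

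Metabolic and transport genes made up most of the others. They were slc22a15.1.L, of the organic ion transporters (1211 bp, chr2L:763462-764671), slc1a5.S, a glutamine transporter (1192 bp, chr8S:76600711-76601901), and pdk3.S, a kinase that inhibits pyruvate dehydrogenase (1058 bp, chr2S:29824251-29825307). The peak of pex19.L, needed for the import of peroxisomal membrane proteins, had 1161 bp (chr8L:113445608-113446767), that of ptplb.L, an enzyme of very long chain fatty acid synthesis, 1141 bp (chr9_10L:45359358-45360497), and that of trappc10.L, a subunit of a vesicle tethering complex, 1204 bp (chr2L:1052316-1053518). These lengths all lay between 1058 and 1211 bp. On 2L, slc22a15.1.L and trappc10.L lay close to the start of the chromosome, at 0.42% and 0.58% of its span, with another broad listed peak (Xelaev18011222m.g, 1220 bp) between them. The peaks of osgin2.L (1164 bp, chr6L:126788530-126789692), next to nbn.L of the DNA double-strand break sensing complex, and wdr93.L (1054 bp, chr3L:99516221-99517273), a WD repeat protein, completed the 16. Between wdr93.L and the next protein-coding gene, pex11a.L, the v10.1 annotation holds 9 tRNA genes, all named trnad-guc.

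**Figure D5:**
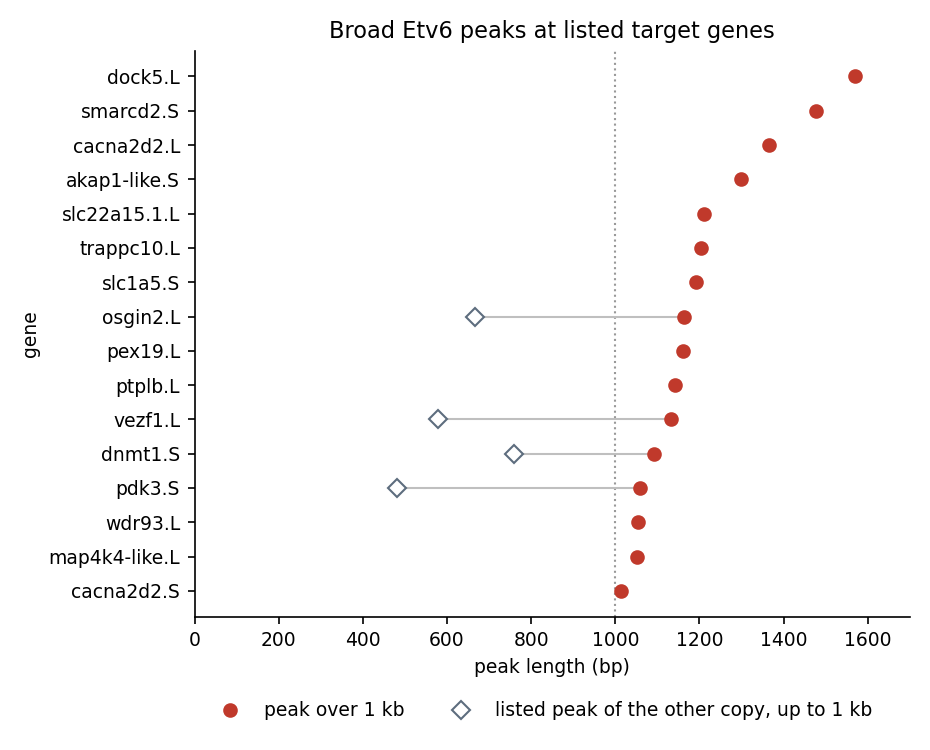
Length (bp, horizontal axis) of the broad peaks at the 16 listed target genes with a symbol (vertical axis), as filled points, and of the listed peak at the other homeolog where that was up to 1 kb long, as open diamonds joined by a line; the dotted line marks 1 kb. Lengths of the broad peaks ran from 1013 bp at cacna2d2.S to 1571 bp at dock5.L, and the 4 open diamonds lie between 481 and 758 bp.

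Since many genes exist as an L and an S copy, the peaks of both were set side by side. For 27 gene symbols the list holds a peak at both copies. In 1 case both peaks were broad (cacna2d2), in 4 cases 1 of them, and in 22 cases none. In those 4 cases the broad copy is the longer one by selection, so the ratios below are a description only. Ratios are not given for the 22 pairs without a broad peak. Of all listed chromosome peaks with a symbol, 16 of 323 were broad. The peak at pdk3.S was 2.20 times as long as that at pdk3.L (481 bp, chr2L:40093128-40093607), and dnmt1.S 1.44 times as long as dnmt1.L (758 bp, chr3L:130415516-130416272). The peak at vezf1.L was 1.96 times as long as the listed one at vezf1.S (579 bp, chr2S:61776234-61776811). However, 55 bp from the latter there was a further peak of 1124 bp (chr2S:61776868-61777990), itself broad but not listed, and both together spanned 1757 bp. Similarly, the peak at osgin2.S (667 bp, chr6S:103336832-103337497) had a neighbour of 427 bp at a distance of 153 bp, the 2 spanning 1246 bp. So at vezf1 and osgin2 the occupied stretch passed 1 kb at both copies, but it was split into 2 peaks on the S copy. In contrast, pdk3.L had no other peak within 100 kb and dnmt1.L none closer than 9.49 kb. However, the peak of dnmt1.L and that neighbour both belong to a run of 4 peaks with a broad peak of 2727 bp (chr3L:130402715-130405440).

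Gene families of the direct target list differed little in the number of broad peaks, which was low in each. None of the 4 listed peaks at KLF/SP factors was broad (516 to 826 bp, the longest at klf11.L), nor was the peak at ets2.S, the only listed ETS factor (907 bp), nor any of the 4 at forkhead factors (292 to 896 bp, with foxo3.S the shortest and foxo3.L the longest). The 10 peaks at genes of DNA replication, from mcm5.S (321 bp) to rrm1.S (718 bp), and the 7 at genes of the Notch pathway, from jag2.L (345 bp) to numb.S (770 bp), were all below the limit. Of the 2 listed peaks at DNA methylation genes, which are the 2 copies of dnmt1, 1 was broad (dnmt1.S). Of the 4 at chromatin remodelling genes 1 was broad (smarcd2.S, the shortest of the 4 being at rere.L with 380 bp). Of the 10 at solute carriers 2 were broad (slc1a5.S and slc22a15.1.L). With so few members, these counts do not separate any family from the 27 of 515 listed chromosome peaks that were broad.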

How the data were processed

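Etv6 ChIP-seq libraries and input libraries (3 each) were sequenced by the authors from somite explants. Per the methods and the submitters' processing notes, trimming used Trimmomatic 0.32, and alignment to the v9.1 assembly of X. laevis used BWA 0.7.12. Peaks were called in each replicate against input with MACS2 at default settings, and DiffBind kept those found in all 3 replicates. The deposited list gives start, end, a peak number and a score, which the authors left at 0 and which was not used. It has 0 columns of per-sample values, so neither depth nor replicate spread could be computed from it. The study reports read depths separately, with fewer uniquely mapped reads for the third ChIP sample than for the other ChIP samples. The effect of depth on the peaks was not tested.

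Length was the deposited end minus the deposited start. Printed starts have 2 bp added, because each of the 545 peaks in the direct target list shares its end with a deposited peak and begins 2 bp later, so a length is 1 bp more than the printed span. Distances ran from edge to edge of the deposited positions, so the gap between printed positions is 1 bp more. Joint spans of 2 peaks are those of the printed positions. A peak counted as listed when it overlapped a listed peak by at least 1 bp. Shares have exact Clopper-Pearson intervals and medians exact order-statistic intervals, at 95%. The scripts were tested on simulated data. No test was made over peaks.

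Broad peaks and gene families were chosen with earlier results of these data known. Named were all listed broad peaks with a symbol, the 10 longest, the 3 peaks on each side of the limit, the 3 most isolated, the 5 closest pairs and the 3 windows of 1 Mb with the most broad peaks. Runs of peaks and peaks beside homeologs were described after the values had been seen, as was the third bin of the chromosome span by subgenome. Gene neighbours were read from RefSeq (assembly v10.1), in which 12 of the 16 symbols were found on the same chromosome, and which served for names only. The alternatives were other length limits, merging of close peaks, other distances and spans, scaffolds and left-out chromosome pairs. Python 3.11.15, pandas 2.3.3, NumPy 2.4.6, SciPy 1.17.1 and Matplotlib 3.10.9 were used.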

Additional observations from a re-analysis of the deposited data

How the results depend on the processing

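The lower median distance, the higher share with a neighbour within 10 kb, the more frequent broad neighbour, the lower share in the outer 10% at either chromosome end and the lower listed share of broad relative to shorter peaks kept their direction in every alternative run. For the outer share, however, the interval of broad peaks held the value of shorter peaks with limits of 750 bp (26.7%) and 2 kb (26.6%) and in the outer 5% (17.4%), so the difference was within the counting error there, as it was for the listed share among peaks with no neighbour within 10 kb (10.3%). The same held for the share with a broad nearest peak at a limit of 1.5 kb, where the interval was 2.74 to 10.9% and the value of shorter peaks 2.90%. The L share did not move beyond its interval (52.4 to 56.0% over 14 alternatives), but whether it was above or below that of shorter peaks changed in 6 of the 14. Sizes depended mainly on the length limit and on merging. With limits of 750 bp, 1.5 kb and 2 kb, the share with a neighbour within 10 kb was 35.5%, 65.8% and 71.6%, and the median distance 39190, 1269 and 704 bp. In the same order, the share with a broad nearest peak was 28.5%, 5.92% and 5.41%, against 23.6%, 2.90% and 1.32% of shorter peaks. Here the limit also sets which neighbours count as broad. The share in the outer 10% was 26.0%, 15.8% and 17.6%, and the listed share 6.59%, 2.63% and 0%. Merging peaks less than 1 kb apart first gave a broad share of 14.1%, a share with a neighbour within 10 kb of 30.2%, a median distance of 57144 bp and a share with a broad nearest peak of 21.5%, and merging those less than 100 bp apart gave a broad share of 11.2%. A neighbour within 5 kb was present for 43.3% and within 20 kb for 52.6%. The outer 5% at either end held 14.8% and the outer 20% held 40.1% of broad peaks. Among broad peaks with no neighbour within 10 kb, an alternative chosen after seeing the data, 7.60% were listed. Leaving out the 3 windows with the most broad peaks, also chosen after seeing the data, gave 45.6% with a neighbour within 10 kb and a median of 19.6 kb. No paired analysis was possible because values per sample were not part of the peak list, and for the same reason no replicate could be left out. The planned search for motifs in promoters was not run, since no promoter sequences were used here.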

Other observations

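Peaks over 1 kb were also present on unplaced scaffolds, which the comparisons above left out. There were 335 of them among 3010 scaffold peaks (11.1%, 10.0 to 12.3%), on 237 scaffolds, with a median length of 1242 bp and up to 12 on a single scaffold. Another peak lay within 10 kb on the same scaffold for 163 (48.7%), and 116 were the only peak of their scaffold. Scaffolds are short, so distances there are cut off, and 20 of the 335 (5.97%) began at the first base of their scaffold, compared with 10.6% of the 2675 shorter scaffold peaks.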
